A study of Mus musculus with 2 samples.

Results

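This account concerns the binding of NF-E2 p45 around 2 platelet transporter genes, Slc6a4 and Abcc4, in mouse megakaryocytes. Every called p45 peak that touched a window of 70 kb around Slc6a4 on chromosome 11 (76790000 to 76860000) or a window of 260 kb around Abcc4 on chromosome 14 (118870000 to 119130000) by at least 1 bp was taken. This gave 2 of the 1651 peaks in the list, 1 in each window. All peak coordinates are on mouse build mm9. The genes were chosen by their known roles in platelets and by the presence and score of called p45 peaks in this same list, so the presence of a peak in each window, and its score, are given as a description with no test.

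The cells were primary megakaryocytes, grown with 50 ng/ml thrombopoietin from livers of wild-type C57BL6 fetuses at embryonic day 13.5 and collected at culture day 3. Chromatin fixed with formaldehyde and broken by sonication was precipitated with an antibody to p45, and the recovered DNA was sequenced (ChIP-seq). The series has 1 p45 library and 1 input library of the same culture type, with no replicate of either, so no peak has a replicate check. The deposited values are 1 score per peak of the p45 library, and values of the input library at these places were not analysed here. The cells were a culture from whole fetal liver, and how pure the megakaryocytes were cannot be read from a peak list.

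NF-E2 is a DNA-binding dimer of p45, a subunit largely restricted to blood cells, and a small Maf protein, and mice without p45 make almost no platelets. Slc6a4 encodes the serotonin transporter, which sits in the plasma membrane, takes up serotonin together with sodium and is how platelets, which do not make serotonin, obtain it from plasma. The serotonin is then packed into dense granules and released when platelets are activated. Abcc4 encodes MRP4, an ATP-driven exporter of the ABC family that moves cyclic nucleotides and other organic anions out of the cytosol and is abundant in platelets. The pair therefore holds 1 importer that is driven by ion gradients and 1 exporter that is driven by ATP.

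The p45 peaks of the 2 transporter windows lay far apart in the list by score. The peak in the Slc6a4 window had a score of 3100, the highest value given to any of the 1651 peaks. The peak in the Abcc4 window had a score of 57.2, where the lowest score in the list was 50.04 and the median 76.44. The score is the authors' own value from the peak caller and ranks peaks within this list, and the sources used here do not name its scale. A score of at least 100 was held by 1 of the 2 peaks, the one near Slc6a4, against 27.9% of the whole list. The same peak was also the only one of the 2 at or above the median score, where 50.2% of the list lay. The windows differ in length and the genes were chosen with these peaks known, so these counts say nothing about how often transporter genes are bound.

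**Figure D1:**
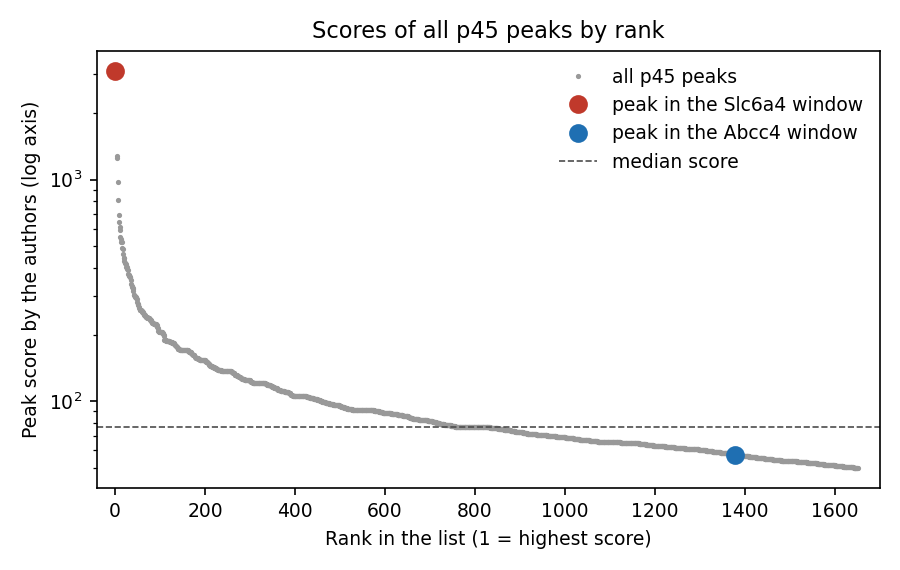
The score of each of the 1651 p45 peaks (vertical log axis) is plotted against its rank (horizontal axis, 1 is the highest), with the median of 76.44 as a dashed line. The Slc6a4 peak lies at the upper left end with 3100, and the Abcc4 peak lies below the median at rank 1379 with 57.2.

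For the importer Slc6a4, the peak ran from 76804001 to 76804724 on chromosome 11, a length of 724 bp. Its top score was shared with 1 other peak, also on chromosome 11, from 104472829 to 104473517. Rank 3 went to a peak on chromosome 1 with 3053.66, and rank 4 to a peak on chromosome X with 1279.27. The Slc6a4 peak thus belonged to a set of 3 peaks that stood clear of all others in score. On chromosome 11, which held 157 peaks, the next score below the tied pair was 463.41, and the median was 76.44. The sources used here do not say if the score is capped at 3100, and the tied peaks could not be ordered.

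The score of the Slc6a4 peak did not go with an unusual length. At 724 bp it was at percentile 60.2 of the list by length, close to the median of 648 bp and inside the quartiles of 556 and 819 bp. There were 655 longer peaks in the list and 66 on chromosome 11. Among the 15 peaks that scored at least 500, the median length was 936 bp, and 9 of them were longer than the Slc6a4 peak. The peak tied with it was 689 bp long, while the peak of rank 3 on chromosome 1 was 1429 bp.

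**Figure D2:**
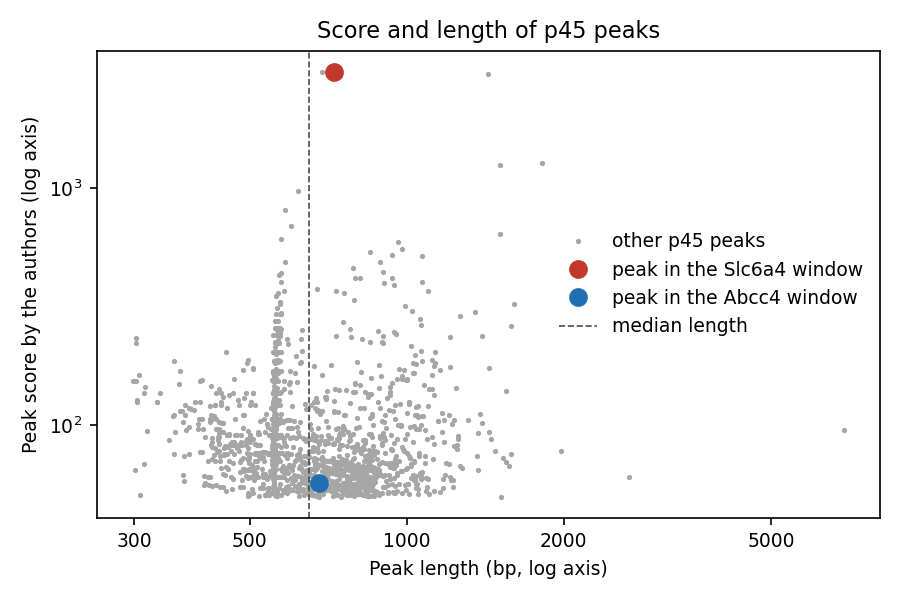
Each point is 1 p45 peak, with its length in bp on the horizontal log axis, its score on the vertical log axis and the median length of 648 bp as a dashed line. Both transporter peaks, of 724 and 680 bp, lie just to the right of the median length, while their scores of 3100 and 57.2 lie at the top and in the lower part of the range.

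The Slc6a4 peak was the only one in its window, and it stood alone over a stretch far wider than the window. It began 14.0 kb above the lower edge of the window and ended 55.3 kb below the upper edge. The last peak before the window, from 76493761 to 76494594, had a score of 62.76 and ended 295.4 kb outside the lower edge. The first peak after the window, from 77110312 to 77110880, had a score of 222 and began 250.3 kb outside the upper edge. Measured from the Slc6a4 peak itself, the empty stretches were 309.4 kb on the lower side and 305.6 kb on the upper side. A nearest neighbour at least as far away was found for 786 of the 1651 peaks, or 47.6%, so this spacing was ordinary for the list, whose median gap was 289.3 kb. On chromosome 11 peaks were closer together, with a median nearest gap of 169.7 kb, and 45 of the 157 peaks there had a gap at least as wide as that of the Slc6a4 peak, itself included.

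Within 1 Mb on either side, the Slc6a4 peak had 7 other peaks, 3 on the lower side and 4 on the upper side. Their scores ran from 60.26 to 222, so none came near 3100. The list as a whole had a median of 2 other peaks within 1 Mb of a peak, with quartiles of 1 and 4, and chromosome 11 had a median of 4. The region around Slc6a4 therefore held more peaks within that distance than the median peak of chromosome 11. Of the 15 peaks that scored at least 500, 9 had a more distant nearest neighbour than the Slc6a4 peak and 5 a nearer one. The peak tied with it had its nearest neighbour at 74.6 kb.

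**Figure D3:**
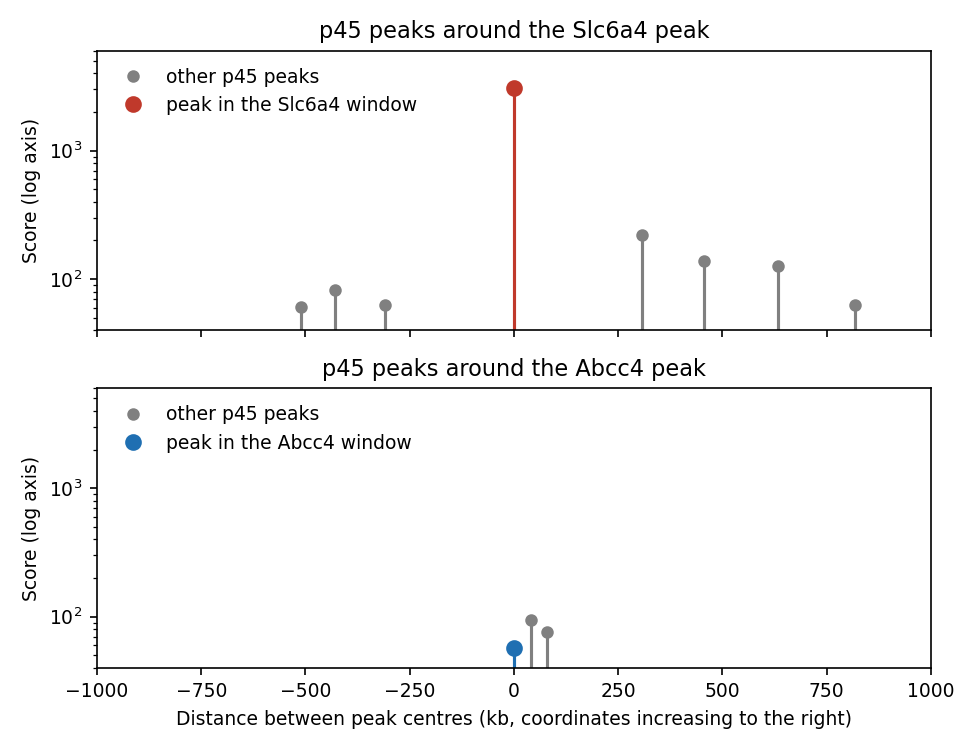
Peaks within 1000 kb of the Slc6a4 peak (upper panel) and of the Abcc4 peak (lower panel) are drawn as stems, with distance between peak centres in kb on the horizontal axis and score on the vertical log axis. The Slc6a4 peak rises above 7 peaks of lower score spread over both sides. The Abcc4 peak has 2 other peaks, both on its upper side within 100 kb and both with a higher score.

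For the exporter Abcc4, the peak ran from 119108618 to 119109297 on chromosome 14, a length of 680 bp. Its score of 57.2 placed it at rank 1379, with 272 peaks, 16.5% of the list, below it. On chromosome 14 it was at rank 40 of 49 peaks, where the highest score was 553.03, the median 76.44 and the lowest 50.72. Its length was at percentile 54.6 of the list. At 680 bp it was shorter than the median of 750 bp over the 338 peaks with scores of 50 or more and below 60. With no replicate library and no tag counts in the list, a peak this near the lowest score has no further check.

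The Abcc4 peak was the first of 3 p45 peaks in a row, and the other two lay outside the window. It began 238.6 kb above the lower edge and ended 20.7 kb below the upper edge. The second peak, from 119149592 to 119150209, began 19.6 kb beyond that edge and had a score of 94.12 over 618 bp. The third, from 119188955 to 119189506, had a score of 76.44 over 552 bp. The gaps were 40.3 kb between the first and the second and 38.7 kb between the second and the third. The peak inside the window thus had the lowest score of the 3, and the highest, at rank 505 of the list, lay just outside. The score of 76.44 was shared by 66 peaks, and a length from 540 to under 590 bp, which the third peak also had, by 434 peaks or 26.3% of the list.

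Around this group of 3, the chromosome held no called peak for a long way. The peak before it, from 117074541 to 117075393 with a score of 65.41, ended 2.03 Mb away, and the peak after it began 1.52 Mb away. Within 1 Mb of the Abcc4 peak, the other 2 members of the group were the only peaks, as many as the median of 2 in the list, while the median on chromosome 14 was 1. A neighbour within 50 kb was found for the Abcc4 peak and not for the Slc6a4 peak, which is 1 of 2, against 14.7% of the list. On chromosome 14, where the median nearest gap was 781.3 kb, 45 of the 49 peaks had a nearest gap at least as wide as its 40.3 kb, itself included.

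**Figure D4:**
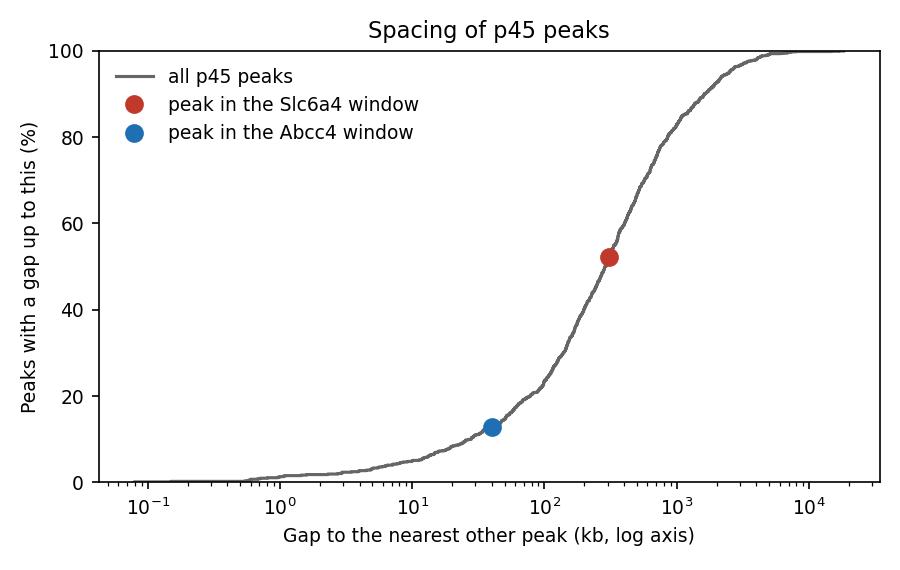
The curve gives the share of p45 peaks (vertical axis, percent) whose gap to the nearest other peak is at most the value on the horizontal log axis (kb), for peaks with another peak on their chromosome. The Slc6a4 peak, at 305.6 kb, lies near the middle of the curve, and the Abcc4 peak, at 40.3 kb, lies in its lower part.

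When neighbours at most 50 kb apart were joined, 14 runs had 3 or more members, and they took in 48 peaks or 2.91% of the list. The group that starts in the Abcc4 window was 1 of these and the only 1 on chromosome 14. It spanned 80.9 kb, where the median of the 14 runs was 28.6 kb, and 1 run was longer, with 84.0 kb. Its highest score, 94.12, was exceeded in 9 of the other runs and lay above the highest score of 4. The median of the highest scores was 116.1. The run was thus among the most widely spaced and held no peak that scored 100. With neighbours joined at up to 25 kb, a setting chosen after the data were seen, the Abcc4 peak stood alone.

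For scale, the spans between the first and last peak of chromosomes 1 to 19 and X were divided into adjoining tiles as long as each window. Of tiles of 70 kb, 4.28% held the centre of at least 1 peak, and of tiles of 260 kb, 14.1% did. Since the genes were chosen with their peaks known, these shares describe the list and are not set against the windows.

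The place of each peak relative to the start, exons and introns of its gene was not analysed here, because the gene annotation used is of build GRCm38.p6 and the peaks are on mm9. That annotation was read for gene order and strand only. In it, Slc6a4 is on the plus strand, with Blmh, the bleomycin hydrolase gene, and Nsrp1, a splicing regulator gene, as the protein-coding genes before and after it. Abcc4 is on the minus strand, and the protein-coding genes before and after it along the chromosome are Gm9376 and Cldn10, a claudin gene of tight junctions. Because genes stand beside each transporter, a peak in the window is a peak near the gene and is not thereby assigned to it.

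The DNA sequence under the peaks was not used here. The RefSeq promoter sequences of GRCm38.p6, from 250 bases before to 50 after a gene start, were searched on both strands for motifs known for NF-E2 and for GATA factors, which act beside it in megakaryocytes. Slc6a4 has 1 such sequence and Abcc4 has 2. The core TGAGTCA was in none of the 3 and in 5.2% of the 32851 promoter sequences. The longer NF-E2 motif, TGC followed at once by that core, was in none of the 3 and in 0.155% of all, and the looser form TGANTCA, which takes in both, was in none of the 3 and in 7.81%. The letters GATAA were found 1 time, in 1 of the 2 Abcc4 sequences, and were present in 25.4% of all promoter sequences. Whether a peak covers any of these sequences is not known here, and the absence of these letters from 300 bases says nothing about p45 at the peaks.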

How the data were processed

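The build is mm9, per the submitters' processing notes. Per the deposited peak names the caller was MACS, run against a control according to the name of the file. The sources used here do not give the aligner, versions, settings or duplicate handling. The authors deposited a headerless list of 5 columns with 1 score per peak. Starts were read as zero-based and are printed 1-based. Ranks count peaks with a higher score, percentiles count ties by 1/2, and gaps are the bases between peaks. All 1651 peaks were kept. Read depth is unknown, so no interval was given. No test was run, since there is 1 p45 library and the members and lists were chosen with earlier results of these data known. Every peak in a window is named, with its nearest neighbours. Other serotonin, Abcc and Slc6 genes listed for lookup need mm9 gene positions and were not analysed here. Functions were tested on simulated data. Python 3.11.15, NumPy 2.4.6, pandas 2.3.3, SciPy 1.17.1 and matplotlib 3.10.9 were used.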

Additional observations from a re-analysis of the deposited data

How the results depend on the processing

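The count of 1 peak in the Slc6a4 window was the same under all 5 alternatives: whole peaks inside, scores at or above the median, scores of at least 100, and edges moved out by 50 or 100 kb. The count of 1 in the Abcc4 window was the same for whole peaks inside. It was 0 with either score limit (0 from the median up, 0 from 100 up), because the peak scores 57.2, and it was 2 and 3 with edges moved out by 50 and 100 kb, which take in the peaks described beyond the upper edge. The score percentile was 99.94 for Slc6a4 in the list and 99.36 among peaks of its chromosome, and 16.51 and 19.39 for Abcc4 in the same order. Counting only peaks strictly below gave 99.88 and 16.47, and ranking Slc6a4 among scores from the median up gave 99.88. Restricted to scores at or above the median, the Abcc4 peak has no percentile. Peaks per 100 kb were 1.43 in the Slc6a4 window and 0.385 in the Abcc4 window, each from 1 peak in a window known to hold it, so they are not read against other densities. Those other densities were 0.066 over chromosomes 1 to 19 and X, 0.133 on chromosome 11 and 0.0451 on chromosome 14. The nearest gap of the Slc6a4 peak remained 305.6 kb at both score limits. The run of the Abcc4 peak held 3 peaks with a gap of 50 or 100 kb and 1 with 25 kb. Edges of 100 kb, the other gaps for runs, and score limits for spacing were chosen after seeing the data. No paired analysis was possible because each group has 1 library and no result comes from a test. Depth is unknown and there is no replicate, so a place with no called peak may still hold p45.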
